A study of Homo sapiens with 8 samples.

Results

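The genes described here build the entry gate and first transport step of the secretory pathway: the signal recognition particle and its receptor, the translocon with its TRAP complex, signal peptidase, oligosaccharyl transferase, the COPII coat and the first receptors for cargo. They were chosen by name and role; the rule uses no measured value, but the list was drawn up with earlier results of these data known. Of 45 listed genes, 43 had a row per the authors' deposited table of 12109 transcripts, and SRP9 and SPCS2 were not analysed here. The table compares human hepatic stellate cells, labelled as the cell line HSCs, that received dsiLARP6 (genotype label LARP6 kd) with cells that received dsi-control (genotype label WT). Stellate cells are the matrix-producing cells of the liver, and LARP6 is an RNA-binding protein of the La-related family, known for binding the messages of fibrillar collagens. RNA-seq and ribosome profiling were each made with 2 control and 2 knockdown libraries, 8 in all. Every culture was grown in serum-containing medium, and the labels of these samples list no other treatment.

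Translation efficiency is the amount of ribosome-protected RNA relative to the amount of message, and the authors' deposited table gives its log2 change in the knockdown over the control. A value above 0 is read here as more footprints per message after knockdown. That sign is taken from the column names, which mark the knockdown, and could not be checked against single libraries; every direction and every control efficiency derived here rests on it. Single libraries are not resolved in it, so replicate spread, standard errors and depth cannot be set beside a value, and the error of each is known only through the authors' p-value. A change was called where the adjusted p was under 0.05. Nothing in the labels states whether replicates came from separate cultures, so these p-values may measure technical spread alone. Since the libraries are bulk, each value is an average over the culture. A shift in the mix of cells and a change of efficiency within cells cannot be told apart. Of 14 stellate cell markers 12 had a row, against 2 of 6 hepatocyte, 1 of 4 endothelial, 1 of 4 leukocyte and Kupffer cell and 2 of 3 biliary markers; LRAT and DES were the stellate markers without one. LARP6 itself had a log2 change in efficiency of 0.07 (adjusted p = 0.981) per the authors' deposited table, which is a ratio to its own RNA and does not check the knockdown.

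A secreted protein such as a collagen chain is recognised by the signal recognition particle as its signal peptide leaves the ribosome, is handed to the receptor on the endoplasmic reticulum and threads through the SEC61 channel while still being translated. Signal peptidase removes the signal peptide, oligosaccharyl transferase attaches N-glycans, and the folded product leaves in vesicles coated by COPII. Procollagen is a bulky cargo for these vesicles, and MIA3, also called TANGO1, is the exit-site receptor best known for helping it out. Stellate cells that lay down matrix depend heavily on this route.

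The start codon and the bases around it are where a ribosome begins on these messages, so they are shown for the measured genes with the lowest and the highest knockdown efficiency, for DAD1 and SPCS3, which had small unadjusted p-values, and for the paired SEC24C and SEC24D. The sequences are from GENCODE release 29 on GRCh38, 5′ to 3′ along the coding strand. Each runs from 9 bases before the start codon to its end and 9 bases beyond; capitals mark the third base before the start codon, the ATG and the base after it.
SRP14: gtcgccGcgATGGtgttgttg
SRP72: tcctccAagATGGcgagcggc
SSR3: agctccGccATGGctcctaaa
SAR1A: gcattaAtaATGTctttcatc
SEC61B: atctccAatATGCctggtccg
SPCS1: cgcctaGcgATGGcgcggggc
SEC11C: gaccctGctATGGtgcgtgcg
SSR4: gaagagGcgATGGcggcgatg
DAD1: cgtgcaGttATGTcggcgtcg
SPCS3: acgatcGcgATGAacacggtg
SEC24C: gctttcAtaATGAacgtcaac
SEC24D: attttcAtaATGAgtcaacaa
A purine at the third base before the start codon and a G just after it are the favoured vertebrate context, written here as ANNATGG or GNNATGG and read at the annotated start codon only, on the coding strand. Of the 42 genes of the set that matched an annotated transcript, 42 had the purine, against 87.0% of 10008 protein-coding transcripts of the table. The full context was present in 22 of the 42 (52.4%), against 46.9% of all. Genes with the full context had a median log2 change of 0.11 (22 genes, −0.52 to 1.28), and the other 20, which hold the purine alone, had a median of −0.06 (−0.45 to 0.49), both from the authors' deposited values. The narrower range lay inside the wider one. SRP14 and SSR3, both with the full context, lay above every gene without it, and SRP72, also with it, lay below every such gene. SRP14 and SSR3, at the low end of efficiency, carry the full context as SSR4 and SEC11C do at the high end.

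None of the 43 genes was called. The authors' deposited table calls 2.2% of all transcripts at an adjusted p under 0.05, and 0 of the 43 passed, in either direction. At an unadjusted p under 0.05 the authors' deposited table holds 6 of the 43 (14.0%), against 10.3% of all transcripts; 5 of the 6 lay above 0 (5.46% of all transcripts) and 1 below (4.83%). The sources used here do not name the program behind the table; of its 2 methods, method 1 alone, adjusted over all transcripts, would call 2 genes, SRP14 and SSR3, where it calls 3.77% of the table, and method 2 alone would call 0, where it calls 2.82%. Of the 43, 23 lay above 0 and 20 below, with a median log2 change of 0.01, against 0.02 over all transcripts of the authors' deposited table. The median absolute log2 change was 0.15 in the set, 0.33 over all transcripts and 0.31 over protein-coding transcripts of the authors' deposited table. It was 0.20 over 96 other genes of the pathway, described further below. Within 0.25 of 0 lay 30 of the 43 (69.8%), against 40.5% of all transcripts, 41.9% of protein-coding transcripts and 56.2% of those 96 genes. Depth is unknown, so the sizes of these changes could not be compared between messages of like depth. In the set 1 gene, SRP14, reached an absolute change of 1, against 10.6% of all transcripts.

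**Figure D1:**
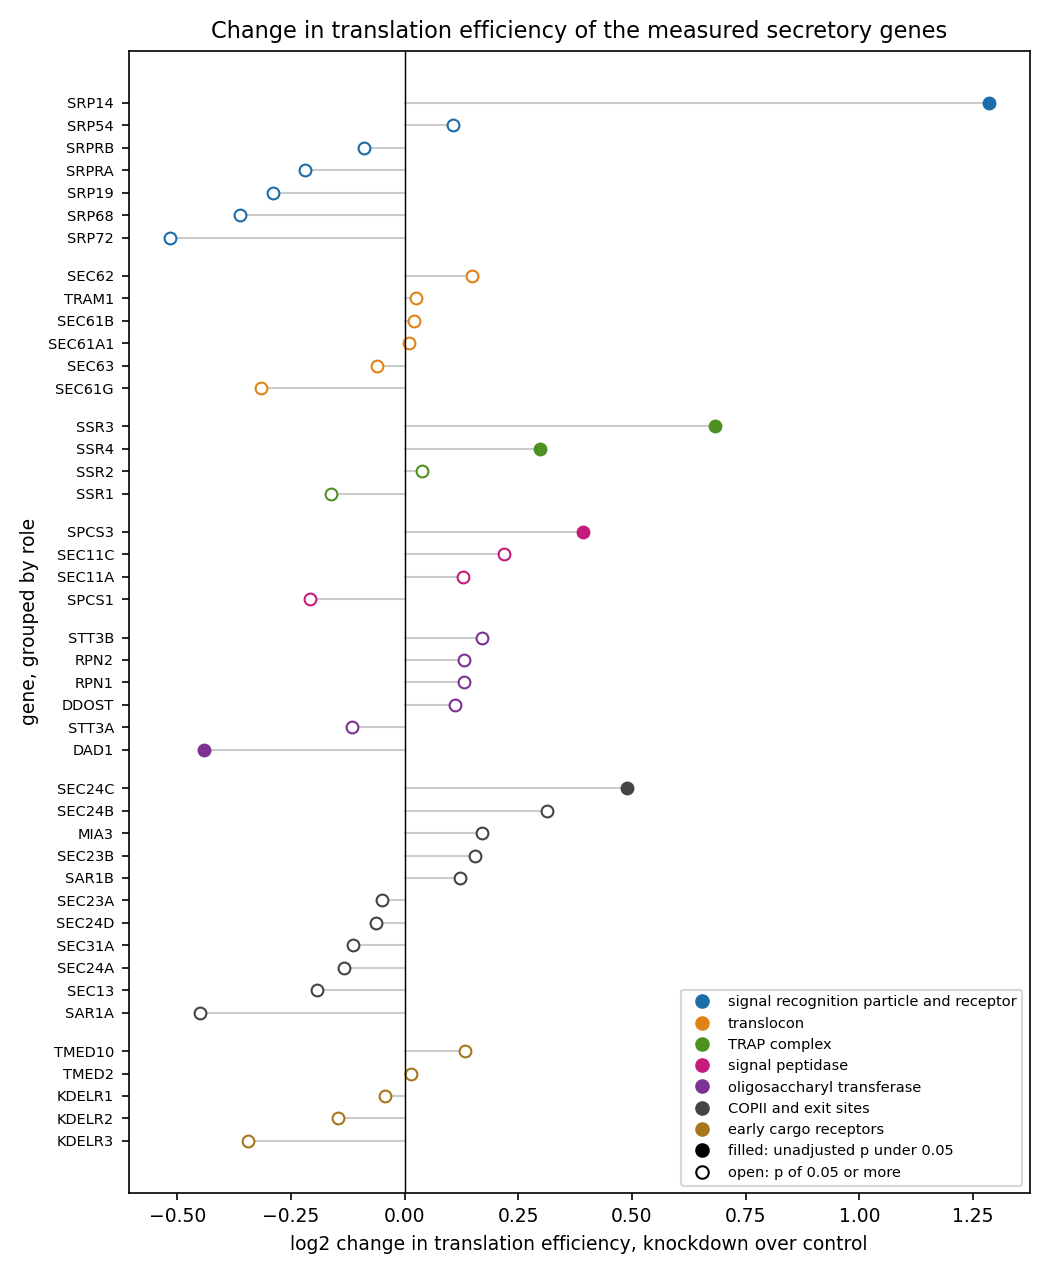
Log2 change in translation efficiency (knockdown over control, x axis) of the 43 measured genes, grouped by role; each point is the authors' deposited value, and filled points have an unadjusted p under 0.05. SRP14 stands farthest from 0 at 1.28, and the other 42 lie between −0.52 and 0.68.

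Most of these values were smaller than any change the table calls. The smallest absolute log2 change of any called transcript per the authors' deposited table was 0.34, or 1.26-fold, and 34 of the 43 genes lay below it. The other 9 were large enough that some transcripts of their size were called. Over the whole table, 5919 of 12109 transcripts lay at or above that smallest called change. Of 712 transcripts with a change at least as large as that of SRP14, 9.13% were called per the authors' deposited table; for the sizes of SSR3 and DAD1 the shares were 7.08% of 2613 and 5.47% of 4660. An uncalled value does not show that a gene's efficiency was unaltered.

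**Figure D2:**
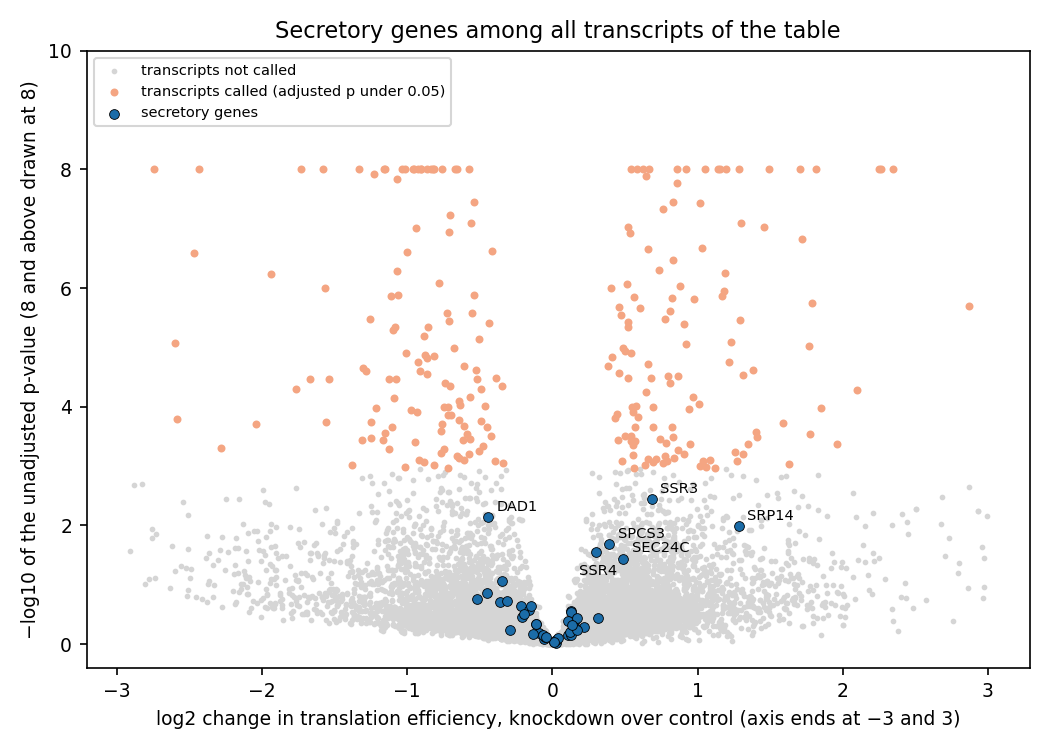
Log2 change (x axis) against −log10 of the unadjusted p-value (y axis, capped at 8) for the transcripts of the table with changes between −3 and 3; called transcripts are orange and the 43 secretory genes blue. No blue point reaches the called region, and the 6 with an unadjusted p under 0.05 are named.

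The signal recognition particle reads the signal peptide, and its group had the widest range, which rested on SRP14 alone. Without SRP14 the group ran from −0.52 to 0.11, a narrower range than the −0.45 to 0.49 of the COPII genes. The 7 measured genes of the particle and its receptor had log2 changes from −0.52 to 1.28 per the authors' deposited table, with a median of −0.22 and 5 of 7 below 0. SRP14 (chromosome 15, 40035739 to 40039188, GRCh38, minus strand), which with SRP9 forms the domain that slows elongation during targeting, was 2.44-fold higher per the authors' deposited table, with an unadjusted p of 0.0104 and an adjusted p of 0.226. Its log2 efficiency was −2.27 in the knockdown per the authors' deposited table and −3.56 in the control, as derived here, the lowest of the 43 in both. By method 1 alone its adjusted p was 0.00478 and by method 2 alone 0.2, so the call turned on the method, while the change of the authors' deposited table was 1.28 by both. SRP72 and SRP68, the large proteins that bind each other on the particle's RNA, had log2 changes of −0.52 (adjusted p = 0.785) and −0.36 (adjusted p = 0.799) per the authors' deposited table. SRP54, the subunit that binds the signal peptide and GTP, had 0.11, and SRP19, which helps SRP54 onto the RNA, had −0.29 per the authors' deposited table. The receptor subunits SRPRA and SRPRB lay at −0.22 and −0.09 per the authors' deposited table.

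The translocon lay nearest to 0. Its 6 genes had a median absolute log2 change of 0.04 per the authors' deposited table. SEC61A1, the channel itself (chromosome 3, 128052369 to 128071682, GRCh38), had a change of 0.01 with an adjusted p of 0.992 per the authors' deposited table. Of the small tail-anchored subunits of the channel, SEC61B had 0.02 and SEC61G −0.32 (adjusted p = 0.797) per the authors' deposited table. The accessory proteins SEC62 and SEC63, which serve post-translational import with the chaperone BiP, had 0.15 and −0.06, and TRAM1, which lies beside the channel, had 0.02 per the authors' deposited table.

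TRAP, the complex of SSR1 to SSR4 that sits at the channel and assists some signal peptides, held the smallest adjusted p of the set. SSR3 (chromosome 3, 156540140 to 156555184, GRCh38, minus strand), its gamma subunit, was 1.61-fold higher, with an unadjusted p of 0.00356 and an adjusted p of 0.118, per the authors' deposited table. By method 1 alone its adjusted p was 0.00814 and by method 2 alone 0.0997. Its log2 efficiency was −1.63 in the knockdown per the authors' deposited table and −2.31 in the derived control, far under its partners. SSR4, the delta subunit, had a log2 change of 0.30 (unadjusted p = 0.0278, adjusted p = 0.368), SSR2 of 0.04 and SSR1 of −0.16 per the authors' deposited table. These 3 had knockdown log2 efficiencies of 1.80, 1.15 and 1.07 per the authors' deposited table, so the 4 subunits of 1 complex spanned 3.43 log2 units of footprints per message.

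Signal peptidase and oligosaccharyl transferase act on the chain as it emerges. Among signal peptidase genes, the glycoprotein subunit SPCS3 (chromosome 4, 176319964 to 176332245, GRCh38) had a log2 change of 0.39 (unadjusted p = 0.0209, adjusted p = 0.322) per the authors' deposited table. The alternative catalytic subunits SEC11A and SEC11C had 0.13 and 0.22, and the small subunit SPCS1 had −0.21, per the authors' deposited table. DAD1 (chromosome 14, 22564905 to 22589269, GRCh38, minus strand), a small subunit of oligosaccharyl transferase, was the 1 gene of the set with an unadjusted p under 0.05 and a value below 0. It was 1.36-fold lower (unadjusted p = 0.00728, adjusted p = 0.185) per the authors' deposited table, and the adjusted p was 0.116 by method 1 and 0.121 by method 2. The other 5 listed subunits lay between −0.12 and 0.17 per the authors' deposited table. The ribophorins RPN1 and RPN2 were each at 0.13 and DDOST at 0.11 per the authors' deposited table. The catalytic subunits STT3A, which works alongside the translocon, and STT3B, which can act afterwards, were at −0.12 and 0.17 per the authors' deposited table. The listed subunits were also alike in level, with knockdown log2 efficiencies from 0.48 to 0.99 per the authors' deposited table and 6 of 6 above 0. Further subunits among the other genes of the pathway spread wider per the authors' deposited table. OSTC lay at −3.02, MAGT1 at 0.35, TMEM258 at 0.86, TUSC3 at 0.93, KRTCAP2 at 1.28 and OST4 at 1.35. Their log2 changes ran from −0.56 for MAGT1 to 0.27 for OSTC per the authors' deposited table.

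COPII builds the vesicles that leave the endoplasmic reticulum. The 11 genes of the coat and exit sites had a median log2 change of −0.05 and a range of −0.45 to 0.49 per the authors' deposited table, with 5 above 0 and 6 below. SEC24C (chromosome 10, 73744384 to 73772161, GRCh38), 1 of 4 SEC24 proteins that select cargo, was 1.40-fold higher (unadjusted p = 0.0363, adjusted p = 0.417) per the authors' deposited table. Its closest paralogue SEC24D had −0.06, and the pair SEC24A and SEC24B had −0.13 and 0.31, per the authors' deposited table. SAR1A and SAR1B, the GTPases that start coat assembly, lay apart at −0.45 (adjusted p = 0.735) and 0.12 (adjusted p = 0.967) per the authors' deposited table. The inner coat paralogues SEC23A and SEC23B had −0.05 and 0.16, and the outer coat proteins SEC13 and SEC31A had −0.19 and −0.11, per the authors' deposited table. MIA3 (chromosome 1, 222618086 to 222668012, GRCh38), the procollagen exit receptor, had a log2 change of 0.17 with an adjusted p of 0.958 per the authors' deposited table.

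The early cargo receptors return or collect proteins between the endoplasmic reticulum and Golgi. KDELR1, KDELR2 and KDELR3, which retrieve escaped chaperones, had log2 changes of −0.04, −0.15 and −0.34 per the authors' deposited table, the last with an unadjusted p of 0.0877. TMED2 and TMED10, p24 proteins that package cargo and form a complex, had 0.01 and 0.13 per the authors' deposited table. The differences between paralogues had no test, since the table gives no error for them. They were 0.55 between SEC24C and SEC24D, −0.57 between SAR1A and SAR1B, −0.45 between SEC24A and SEC24B, −0.29 between STT3A and STT3B, −0.21 between SEC23A and SEC23B and −0.09 between SEC11A and SEC11C, each the first gene minus the other on the log2 scale. The 3 KDEL receptors differed by at most 0.30.

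As a reference, 4 secreted products of these cells were picked by name, and they are no sample of the cargo of this route. COL3A1, COL1A1 and COL1A2 had log2 changes of −0.82, −0.57 and −0.42 per the authors' deposited table, with adjusted p of 3.23e-23, 2.32e-11 and 3.98e-05. Fibronectin, FN1, had −0.56 (adjusted p = 1.56e-05) per the authors' deposited table. Their derived control log2 efficiencies were −0.15, −0.20 and −0.19 for the collagens and −2.12 for FN1, against a median of 0.44 for the 43 genes. The difference between these 4 and the 43 genes was not tested. Beyond the 43, a list of 105 further names covered membrane insertion, COPI, the intermediate compartment and Golgi tethering. It also held further genes of oligosaccharyl transferase, the translocon and COPII exit sites. With older symbols included, the list gave 96 rows. Of these 96, 0 were called per the authors' deposited table, against 2.2% of all transcripts, and 13 (13.5%) had an unadjusted p under 0.05, against 10.3% of all. Of the 13, 5 lay above 0 and 8 below, where all transcripts had 5.46% and 4.83%; the 96 had a median log2 change of −0.04.

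The 6 with the smallest p-values in that list were MCFD2, TMED3, TMED5, ERGIC1, BCAP31 and MAGT1. MCFD2, the partner of the lectin LMAN1 in exporting coagulation factors, had a log2 change of 0.58 (adjusted p = 0.0582), and the p24 protein TMED3 had −0.65 (adjusted p = 0.0890), per the authors' deposited table. TMED5, another p24 protein, had 0.63 (adjusted p = 0.103) and ERGIC1, a protein cycling between the endoplasmic reticulum and Golgi, had 0.43 (adjusted p = 0.117) per the authors' deposited table. BCAP31, a membrane chaperone of the endoplasmic reticulum, had 0.48 and MAGT1, an oxidoreductase subunit of the STT3B form of oligosaccharyl transferase, had −0.56 per the authors' deposited table, with adjusted p of 0.251 and 0.268. Of the 96 rows, method 1 alone, adjusted over all transcripts, would call MCFD2 (0.00552), TMED3 (0.0361) and ERGIC1 (0.0496). Over the whole table method 1 alone calls 3.77%.

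Efficiency levels differed between the genes far more than they changed. Knockdown log2 efficiency ran from −2.27 for SRP14 to 1.80 for SSR4 per the authors' deposited table, a span of 4.07. The changes ran from −0.52 to 1.28, with 42 of the 43 at most 0.68 in size. Over all transcripts the knockdown log2 efficiency spanned 16.29 and the changes ran from −6.39 to 6.80. Footprints and RNA enter level and change as ratios on a log2 scale, which are not expression levels. The sources used here do not say over which part of a message either was counted. The median was 0.48 in the set, with 27 of the 43 (62.8%) above 0, against 0.008 and 50.3% over all transcripts of the authors' deposited table. Over the 96 other genes of the pathway the median was 0.36, with 63.5% above 0, per the authors' deposited table. TRAP and signal peptidase had the highest group medians, 1.11 and 1.18, followed by the early cargo receptors at 0.91 and oligosaccharyl transferase at 0.72, per the authors' deposited table. The translocon had 0.39, the COPII genes −0.05 and the signal recognition particle with its receptor −0.23 per the authors' deposited table. Across the 43 genes the derived control and the knockdown log2 efficiency had a Pearson r of 0.955; these values share libraries, and the control was derived from the knockdown column, so this is a description. Some paralogues lay far apart in level: SAR1A at −1.52 against SAR1B at 1.27, and SEC11A at −0.61 against SEC11C at 1.73, whereas STT3A and STT3B both lay at 0.48, per the authors' deposited table.

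**Figure D3:**
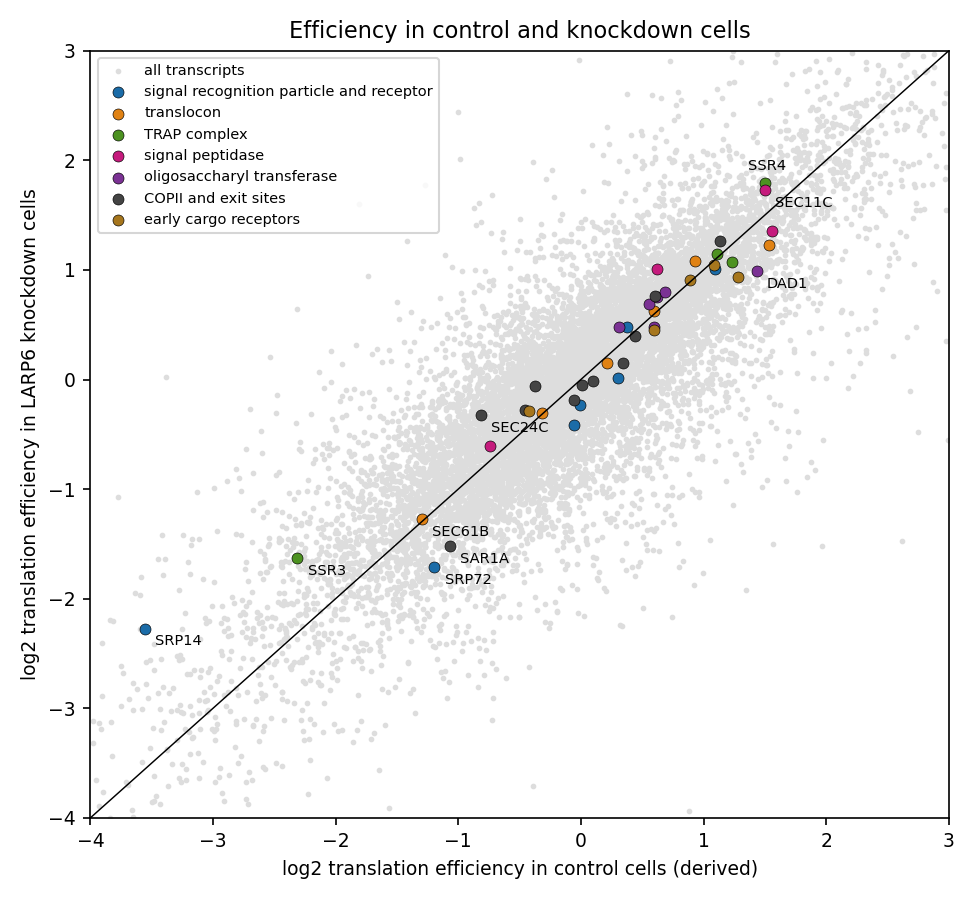
Log2 translation efficiency in control cells (x axis, derived as the knockdown value minus the second method's change) against knockdown cells (y axis, deposited); grey points are transcripts of the table within the axes, coloured points the 43 genes by role, and the line marks equal values. Most coloured points lie close to the line between −1 and 2, with SRP14 and SSR3 above it at the lower left.

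The 5 genes of lowest efficiency all had near copies elsewhere in the genome. Every coding sequence was cut into overlapping windows of 28 bases, about the length of a ribosome footprint, and a window was counted as shared where an annotated transcript of another gene held the same bases on the same strand. No window was shared in 23 of the 42 matched genes, and 10 (23.8%) shared at least 10% of theirs, against 19.5% of 10338 protein-coding transcripts of the table. The 10 were SRP14, SRP19, SRP72, SEC61B, SEC63, SSR3, SEC11A, SAR1A, TMED10 and KDELR2. Their median knockdown log2 efficiency was −0.94, with 7 of 10 below 0, against 0.76 in the 23 genes without a shared window, with 5 below 0. Over all protein-coding transcripts the same medians were −0.49 and 0.11. Across the 42 genes the share and the knockdown log2 efficiency had a Spearman rho of −0.612 and a Pearson r of −0.442, and across all 10338 transcripts −0.186 and −0.067; genes are not independent replicates, and all points come from the same libraries. Without SRP19, left out after the values were seen, the r across 41 genes was −0.704 and the rho −0.626. No transcript was left out of the values across all 10338. SEC63, with the largest share after SRP19 at 30.4%, had a knockdown log2 efficiency of 0.15 per the authors' deposited table. For the log2 change the rho across the 42 was −0.12. The sources used here do not say how reads that map to several places were counted, and the part of shared sequence in any of these values was not tested.

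**Figure D4:**
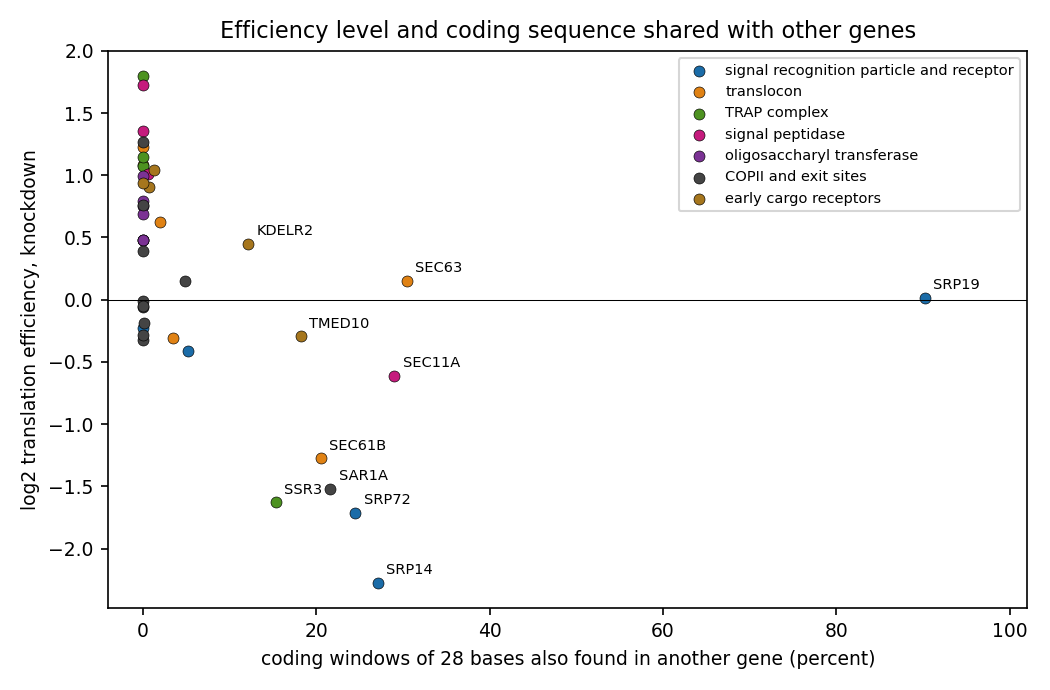
Share of 28-base coding windows also found in another gene (x axis, percent) against knockdown log2 translation efficiency (y axis) for the 42 genes matched to an annotated transcript, coloured by role. The 5 genes of lowest efficiency share between 15.3% and 27.1% of their windows, and SRP19 stands alone at 90.2%.

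The 5 lowest efficiencies of the set belonged to SRP14, SRP72, SSR3, SAR1A and SEC61B, which shared 27.1%, 24.5%, 15.3%, 21.6% and 20.5% of their windows. The longest unbroken run that each has in common with the copy holding most of its shared windows, a processed pseudogene in every case, is shown because a footprint inside it cannot be assigned to 1 gene by its bases. All letters are the coding strand of the member (GRCh38, GENCODE release 29), and every base is identical in the copy. A run between KDELR1 and KDELR2, the only stretch of this kind between any paralogues compared within the set, comes last.
SRP14: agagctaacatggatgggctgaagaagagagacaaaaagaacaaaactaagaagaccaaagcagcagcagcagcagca
SRP72: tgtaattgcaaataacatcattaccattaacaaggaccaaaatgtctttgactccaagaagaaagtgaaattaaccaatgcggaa
SSR3: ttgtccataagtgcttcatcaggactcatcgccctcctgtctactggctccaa
SAR1A: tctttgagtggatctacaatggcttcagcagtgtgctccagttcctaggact
SEC61B: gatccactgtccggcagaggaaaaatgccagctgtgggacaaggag
KDELR1: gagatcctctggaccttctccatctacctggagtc
The SRP14 run covers coding bases 262 to 339 and ends in the repeat that encodes its alanine-rich tail; windows of SRP14 recur under 62 other gene symbols, 6 of them pseudogenes. Its copy is SRP14P2, and those of the next 4 are SRP72P2, AC103591.1, SAR1AP1 and AC023232.1. SRP19 differs from the rest: 90.2% of its windows lie in AC008575.1, annotated as a nonsense-mediated decay transcript, and its log2 efficiency was 0.02 per the authors' deposited table. KDELR2 shares 10.8% with DAGLB. The SEC23, SEC24, SAR1, STT3 and SEC11 pairs shared 0 windows between their coding sequences, so at this length their footprints differ from each other.

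Transcript structure varied widely among the genes. The annotated coding lengths ran from 207 bases for SEC61G to 5724 for MIA3, with a median of 1047 against 1398 over the protein-coding transcripts of the table. Coding length on a log2 scale had a Spearman rho of −0.284 with knockdown log2 efficiency across the 42 genes and −0.398 across 10339 protein-coding transcripts, and of 0.082 and −0.027 with the log2 change. The share of the transcript that is coding had a rho of −0.125 with efficiency and 0.131 with the change across the 42. These are descriptions across genes of the same libraries.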

How the data were processed

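The authors' deposited table, the comparison of 2 RNA-seq and 2 ribosome profiling libraries per condition, holds log2 changes of translation efficiency by 2 methods and a final one. Each of these changes has a p-value, and the final p-value is also given adjusted. The knockdown log2 efficiency is given without a p-value, per the file headers. For each of 12109 transcripts the final p-value is whichever method's is larger, and recomputing the Benjamini-Hochberg adjustment gave the deposited adjusted p-value to within 6.3e-15. Per the submitters' processing notes, the tools were cutadapt and Bowtie and the builds are written hg38 and GRCh38; versions and roles are not given. RNA was extracted with Trizol, and lysates for profiling were digested with RNase I after cycloheximide, per the labels' protocols. Depth is unknown.

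Members and lists were chosen with earlier results of these data known. Values were read as deposited; control efficiency is the knockdown value minus method 2's change. Each method alone was adjusted over all transcripts. Rows were matched to GENCODE release 29 by symbol and the last 6 digits of the transcript identifier (42 of 43 members; SRPRB did not match). Python 3.11.15, pandas 2.3.3, numpy 2.4.6 and scipy 1.17.1 were used, and the adjustment was tested on simulated data. Named were all members, LARP6, COL1A1, COL1A2, COL3A1, FN1, and the 6 pathway genes with the smallest p-values. The start contexts and shared windows were added after the values were seen. Alternatives were other thresholds, each method alone, centring, and protein-coding or named transcripts only.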

Additional observations from a re-analysis of the deposited data

How the results depend on the processing

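No paired analysis was possible because single libraries are not resolved in the deposited comparison. For the same reason no interaction model and no runs leaving out a replicate were possible. Protein identity between paralogues was planned but is not given, because no protein sequences were available. Shared coding windows were used in its place. The count of called genes stayed at 0 at an adjusted p of 0.01 or 0.1, with a 1.5-fold minimum, by method 2 alone and among protein-coding or named transcripts only. It was 6 at an unadjusted p of 0.05 (5 higher, 1 lower) and 2 by method 1 alone (SRP14 at 1.28 and SSR3 at 0.68 on the log2 scale); the final p-value is by construction the larger of the 2. Centred on the median of all transcripts, the median log2 change of the 43 genes turned from 0.01 to −0.0016, as did TMED2 to −0.0016 and SEC61A1 to −0.0056, none of them called. No group median changed sign or moved by 0.1 or more under any of these log2 scales. Depth is unknown, so which genes were too shallow to be called cannot be said.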
